A study of Mus musculus with 2 samples.

Results

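The DNA replication machinery was followed through 49 genes that encode the proteins which mark and license origins, unwind DNA, copy it, supply nucleotides for it and repackage the copies. The members were taken by symbol from a list of origin licensing, helicase, polymerase and nucleotide supply genes, and all 49 were found among the 54532 genes of the deposited count table. RNA had been sequenced from 2 tumours of Hepa1-6, a mouse hepatocellular carcinoma line, grown in C57BL/6 mice. One tumour came from cells with a stably integrated control lentivirus that carries GFP and puromycin resistance (vector). The other came from cells with the same kind of lentivirus carrying IRF8, a transcription factor of myeloid and B cells. Each kind of cell was injected into its own side of a mouse, and RNA was taken from tumour tissue, so it holds RNA of host cells beside that of cancer cells. Both are of mouse origin, and their reads were not separated. The labels give neither the age of the animals nor the time of harvest, and do not say whether the transduced cells were 1 clone.

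The labels give 1 library per group. No difference below could be checked against replicates, and none was tested. The libraries held 20223649 (vector) and 17316607 (IRF8) counts. Irf8 itself had 2578 counts in the library labelled IRF8-overexpression against 4178 in the other, a log2 ratio of -0.51 (-0.58 to -0.44), which goes against the label. The tumours and their libraries are therefore called vector-labelled and IRF8-labelled, and every direction rests on those labels. A log2 ratio is IRF8-labelled over vector-labelled, from counts divided by library sizes scaled with edgeR's TMM factors. The range after a ratio is its 95% counting interval, from the Clopper-Pearson interval of the split of a gene's counts. It covers counting error only and says nothing about how 2 tumours of 1 group would differ. A gene was called lower or higher when its ratio passed 1.2-fold (or 2-fold, where stated) and its interval excluded 0. Levels are given as CPM, which are counts scaled to library size, or as FPKM (CPM per kilobase of the deposited gene length) where different genes are compared.

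Replication starts with licensing. The origin recognition complex (ORC) binds origins and, with CDC6 and CDT1, loads the MCM2-7 helicase as an inactive ring, a step that geminin blocks once S phase has begun. The kinase CDC7 with DBF4, together with cyclin-dependent kinases, then lets CDC45 and the GINS complex join the ring, and the polymerases follow. Many of these genes are transcribed at the start of S phase by E2F factors, and their mRNA levels are widely used as a sign of dividing cells, in liver tumours as elsewhere.

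Most of the replication genes stood lower in the IRF8-labelled tumour, each by less than 2-fold. All 49 passed the filter of a mean of at least 1 CPM in the 2 libraries. The point ratio was below 0 for 46 of them, and 25 were called at least 1.2-fold lower, against 14.8% of all 14775 measured genes. None was called at least 1.2-fold higher, where 15.7% of all measured genes were. None passed 2-fold in either direction, where 2.87% of all measured genes were lower and 2.92% higher. Their counting intervals lay below 0 for 33 genes (25.8% of all measured genes), above 0 for 1 (23.5%) and held 0 for 15. Among the 11315 genes within the expression range of the replication genes (mean of 3.64 to 187.9 CPM), 15.3% were called at least 1.2-fold lower and 26.5% had an interval below 0. The median log2 ratio of the 49 genes was -0.28, and that of all measured genes was -0.0012. Summed over the 49 genes, the level was 2682 CPM in the vector-labelled tumour and 2184 CPM in the IRF8-labelled tumour, 18.6% lower (17.5% to 19.6%).

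**Figure D1:**
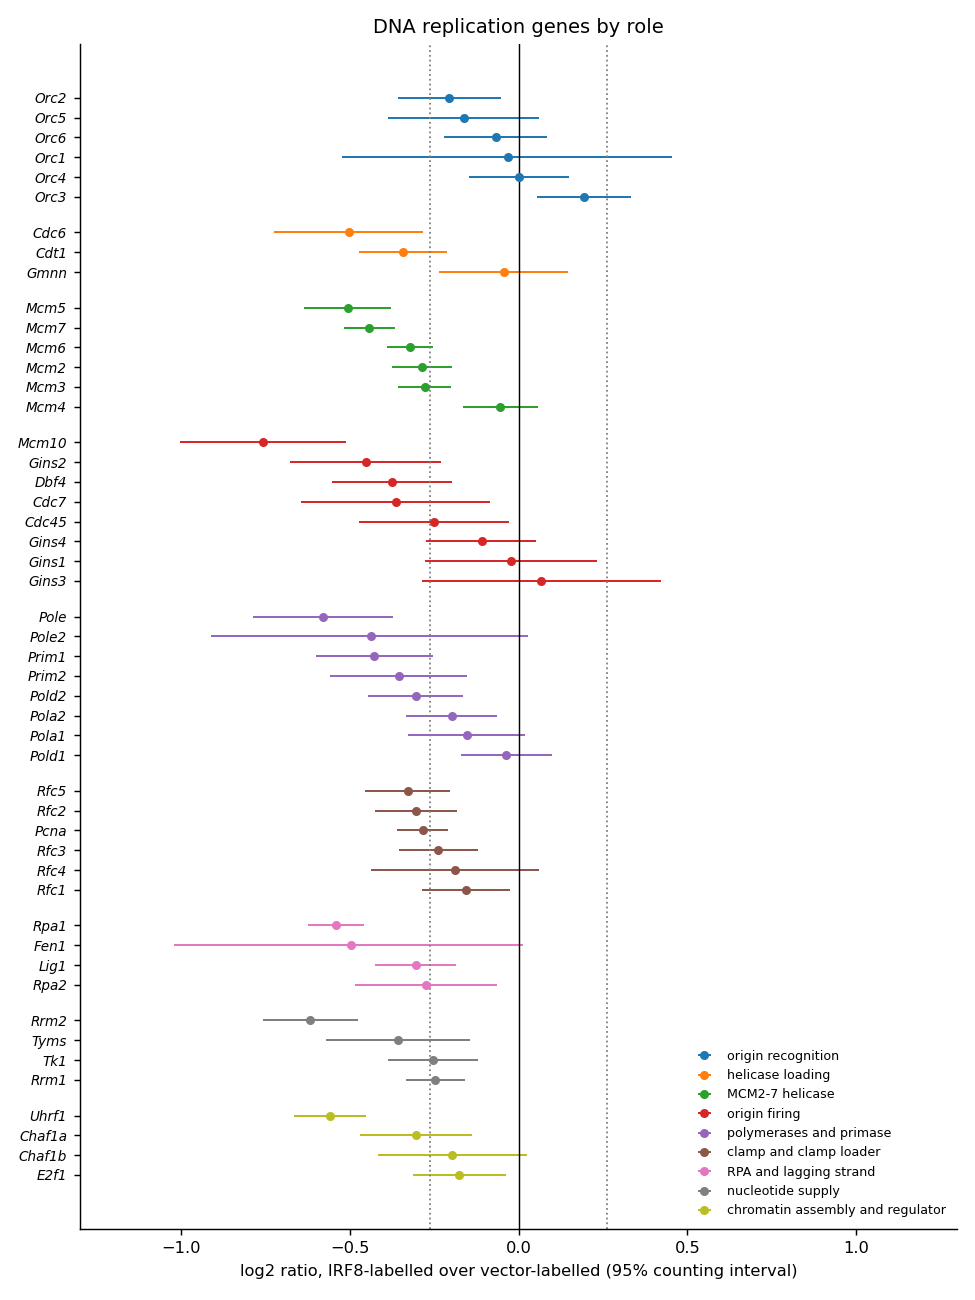
Log2 ratio (IRF8-labelled over vector-labelled library, horizontal axis) of each of the 49 replication genes, grouped by role; points are ratios, bars are 95% counting intervals, and dotted lines mark 1.2-fold in either direction. Of the 49 points, 46 lie left of 0, from Mcm10 at -0.76 to Orc3 at 0.19 on the right.

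The 2 libraries ranked the replication genes by level in nearly the same order (Spearman's rho 0.986 across the 49 genes, a description, since genes of a library are not independent). Pcna, which encodes the sliding clamp that tethers polymerases to DNA, was the most abundant per length, at 70.7 FPKM in the vector-labelled tumour and 58.1 FPKM in the IRF8-labelled tumour. Orc1, which encodes an ATPase subunit of ORC, was the least abundant, at 1.14 and 1.11 FPKM. The median replication gene stood at 10.1 and 8.84 FPKM. The ratio did not follow the level across the genes (Spearman's rho -0.086 between ratio and mean CPM).

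**Figure D2:**
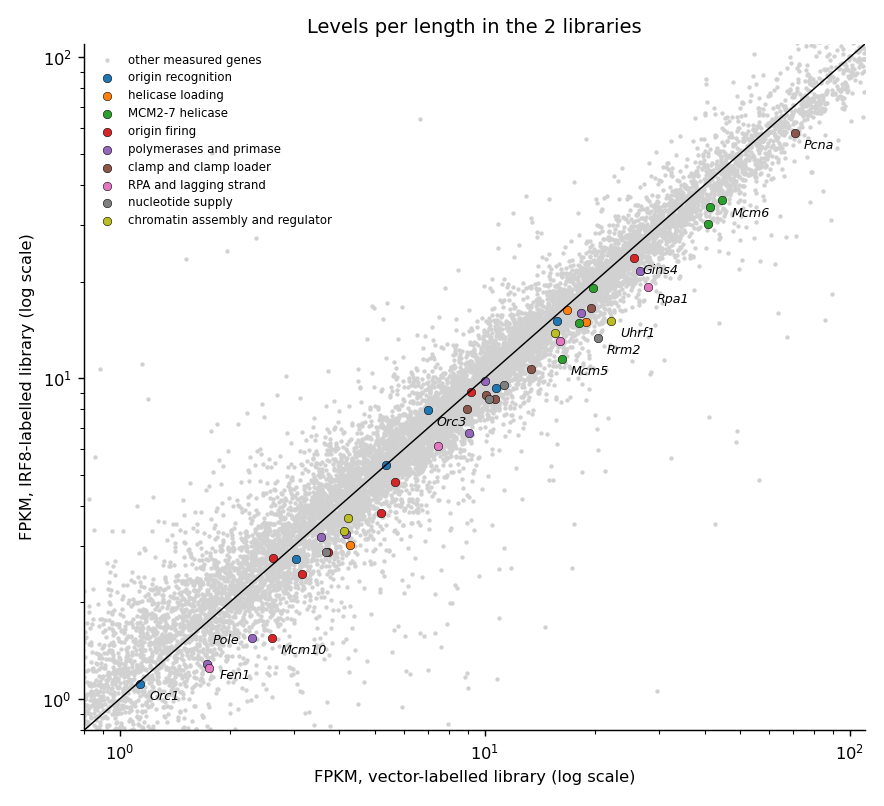
FPKM of each gene in the vector-labelled (horizontal) and IRF8-labelled (vertical) library, both axes logarithmic; coloured points are the replication genes by role, grey points are other measured genes, and the line marks equal levels. Replication genes from Orc1 (1.14 and 1.11 FPKM) to Pcna (70.7 and 58.1 FPKM) lie mostly below the line.

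The origin recognition complex differed least of the roles. Its summed counts were 3698 and 3199, and the log2 ratio of the sum was -0.03 (-0.09 to 0.04). None of its 6 genes was called, where 14.8% of all measured genes were called lower and 15.7% higher. Orc3, a core subunit (chromosome 4, 34570796 to 34614944, minus strand, mm10), had 847 counts in the vector-labelled tumour and 853 in the IRF8-labelled tumour. Against the smaller total of the second library, this made it the one replication gene with an interval above 0, at 0.19 (0.055 to 0.33). Orc2 was the one ORC gene with an interval below 0, at -0.20 (-0.36 to -0.054), from 825 and 630 counts. Of its exon bases, 29.8% overlap the opposite-strand gene Nif3l1 in GENCODE M21, and the library kit as named does not mark strand. The intervals of Orc1, Orc4, Orc5 and Orc6 held 0, with ratios from -0.16 to 0.0010. Orc1 had only 79 and 68 counts and an interval of -0.52 to 0.45, which leaves room for a difference of either sign.

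The helicase loaders went lower while their inhibitor stayed closer to even. Cdc6, whose product loads the helicase at ORC, had 446 and 277 counts, 29.4% lower (17.8% to 39.5%). Cdt1, the partner of Cdc6 in loading, had 1187 and 824 counts, 21.1% lower (13.7% to 27.9%). Gmnn, which encodes geminin, had 491 and 419 counts and a log2 ratio of -0.04 (-0.24 to 0.15). The ratio of Cdt1 to Gmnn counts was 2.42 in the vector-labelled tumour and 1.97 in the IRF8-labelled tumour. Such a ratio within a library does not depend on scaling, and the second was 0.814 of the first (0.693 to 0.956, exact conditional interval, counting error only). This pair and the other within-library pairs below were chosen after their values were seen, so their intervals are descriptions only.

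Of the 6 subunits of the MCM2-7 helicase, which unwinds DNA at the fork, 5 were called lower, against 14.8% of all measured genes. The summed counts of the 6 subunits were 16096 and 11339, a level 20.0% lower (18.0% to 21.9%) in the IRF8-labelled library. Mcm5 (chromosome 8, 75109569 to 75128439, plus strand) stood lowest, with 1297 and 804 counts and a log2 ratio of -0.51 (-0.63 to -0.38). Mcm7 followed at -0.44 (-0.52 to -0.37) from 3619 and 2345 counts, and Mcm6 at -0.32 (-0.39 to -0.25) from 4164 and 2934. Mcm2 and Mcm3 were lower by 18.0% and 17.5%. Mcm4 was the exception, with 1420 and 1204 counts and an interval that held 0, at -0.05 (-0.17 to 0.06). The Mcm5 to Mcm4 count ratio was 0.913 in the vector-labelled tumour and 0.668 in the IRF8-labelled tumour, the second 0.731 of the first (0.649 to 0.823).

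The proteins act in equal numbers in the ring, but the transcripts were not equally abundant. Mcm6, Mcm3 and Mcm7 stood at 44.7, 41.3 and 41.0 FPKM in the vector-labelled library, and Mcm4, Mcm2 and Mcm5 at 19.8, 18.1 and 16.3 FPKM. The IRF8-labelled library had the same 2 tiers, with the first 3 at 35.8, 34.1 and 30.2 FPKM and Mcm4, Mcm2 and Mcm5 at 19.1, 14.8 and 11.5 FPKM. The subunit with the highest level exceeded the lowest 2.75-fold in the first library and 3.12-fold in the second. These levels use the deposited gene length, which for Mcm2 is 6956 bases against 3494 in its longest transcript. For Mcm4 both are 3589 bases. The FPKM of Mcm2, its place in the lower tier and the gap between the tiers therefore depend on the length used. For Mcm7, 34.2% of the 50-base stretches of its longest transcript also occur in transcripts of other genes, so its level may depend on how the authors counted shared reads.

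**Figure D3:**
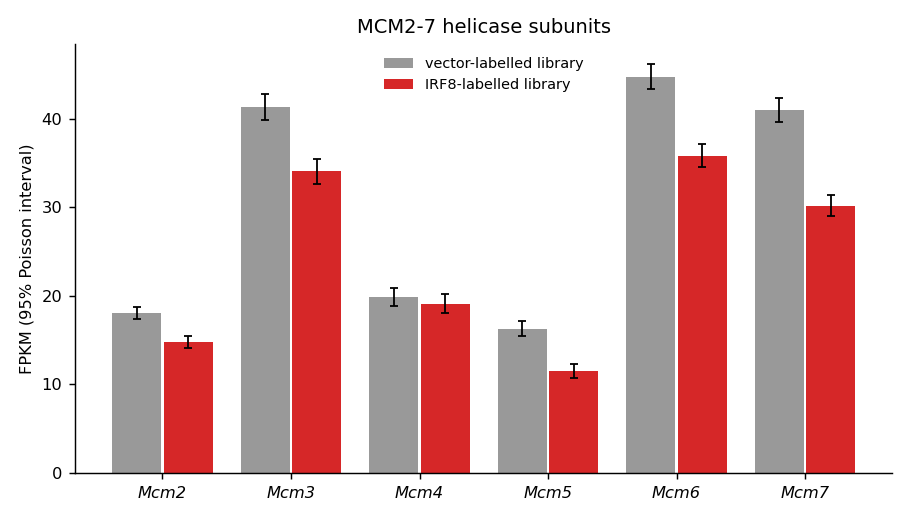
FPKM (vertical axis) of the 6 MCM2-7 subunit genes in the vector-labelled (grey) and IRF8-labelled (red) library; bars start at 0 and whiskers are 95% exact Poisson intervals of the count. By the deposited gene lengths, Mcm3, Mcm6 and Mcm7 form a higher tier in both libraries, and the bars of Mcm4 (19.8 and 19.1 FPKM) differ least.

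Promoters of these genes are known for sites of the E2F factors. RefSeq (GRCm38.p6) start sites were matched for 41 of the 49 genes, each with windows of 250 bases before to 50 bases after a start. The windows were searched on both strands for the letters TTTGGCGC, TTTCCCGC, TTTCGCGC or TTTGCCGC, which can overlap each other. A match was held by 15 of the 41 genes (36.6%), against 2.61% of 27025 genes with a window. Those 27025 genes were not matched to the members in expression or in base content of the promoter. Below, the 200 bases before the start are printed 5′ to 3′ for 4 licensing and helicase genes that were called lower and, for contrast, for Orc3, which was not. Capitals mark the E2F-type letters. The starts are those of RefSeq. For Cdc6 and Mcm7 the printed bases lie inside the deposited gene, which begins at 98907801 (Cdc6) and, on the minus strand, at 138172422 (Mcm7).
Mcm5 chr8:75109309-75109508 (plus strand): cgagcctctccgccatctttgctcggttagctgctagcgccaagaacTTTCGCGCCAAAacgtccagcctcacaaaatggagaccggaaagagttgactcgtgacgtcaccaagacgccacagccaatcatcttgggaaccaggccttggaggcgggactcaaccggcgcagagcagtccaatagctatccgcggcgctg
Mcm6 chr1:128359706-128359905 (minus strand): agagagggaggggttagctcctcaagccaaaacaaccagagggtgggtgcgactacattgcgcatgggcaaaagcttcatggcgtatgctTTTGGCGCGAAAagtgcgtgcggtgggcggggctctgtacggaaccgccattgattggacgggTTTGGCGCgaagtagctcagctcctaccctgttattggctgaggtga
Mcm7 chr5:138171884-138172083 (minus strand): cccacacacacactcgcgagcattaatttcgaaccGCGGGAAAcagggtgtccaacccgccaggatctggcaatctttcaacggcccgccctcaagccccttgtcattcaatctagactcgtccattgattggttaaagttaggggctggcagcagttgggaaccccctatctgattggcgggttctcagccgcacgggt
Cdc6 chr11:98907951-98908150 (plus strand): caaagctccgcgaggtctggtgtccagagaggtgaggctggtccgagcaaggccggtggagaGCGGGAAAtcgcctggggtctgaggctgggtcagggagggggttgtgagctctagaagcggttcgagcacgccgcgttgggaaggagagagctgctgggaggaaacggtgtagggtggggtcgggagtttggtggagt
Orc3 chr4:34614943-34615142 (minus strand): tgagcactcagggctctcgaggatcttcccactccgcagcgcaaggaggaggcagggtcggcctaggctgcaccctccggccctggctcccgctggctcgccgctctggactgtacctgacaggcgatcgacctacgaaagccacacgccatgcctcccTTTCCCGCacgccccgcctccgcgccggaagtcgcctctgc
In Mcm5 and Mcm6, matches on both strands overlap in 1 run of letters, and Mcm6 has a further match nearer the start. Genes with and without a match had similar medians. The 15 genes with a match had a median log2 ratio of -0.30 (range -0.56 to 0.19, 8 called lower), and the 26 without one had a median of -0.28 (range -0.76 to 0.0010, 13 called lower). Orc3, with its ratio of 0.19, and Mcm5, at -0.51, both hold a match. A match is a run of letters and not a measured binding site.

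The factors that fire a licensed origin held the lowest ratio of all 49 genes. Mcm10, which helps activate the loaded helicase (chromosome 2, 4989714 to 5012791, minus strand), had 401 counts in the vector-labelled tumour and 209 in the IRF8-labelled tumour, 40.8% lower (29.8% to 50.1%). Both genes of the origin-firing kinase were called lower, with 263 and 180 counts for the catalytic subunit gene Cdc7 (22.2% lower, 5.65% to 36.0%) and 647 and 439 for its activator Dbf4 (22.9% lower, 12.8% to 31.9%). Cdc45, a part of the active helicase, had 396 and 293 counts, with an interval below 0 but a ratio short of 1.2-fold, at -0.25 (-0.47 to -0.029).

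The 4 GINS genes, whose products form 1 complex with each other, did not share a ratio. Gins2 was called lower, with 426 and 274 counts and a log2 ratio of -0.45 (-0.68 to -0.23). The intervals of Gins1, Gins3 and Gins4 held 0, with ratios of -0.02, 0.07 and -0.11. Of the exon bases of Gins2, 67.3% overlap the opposite-strand gene Gse1, which had 823 and 649 counts, and reads of the 2 genes cannot be told apart there. The Mcm10 to Gins1 count ratio was 1.44 and 0.867 in the 2 libraries, the second 0.601 of the first (0.469 to 0.770). This pair, too, was chosen after its values were seen, with Mcm10 at the lowest ratio of the 49 genes.

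All 8 polymerase and primase genes had point ratios below 0, and 4 were called lower, against 14.8% of all measured genes. Pole, the catalytic subunit of the leading-strand polymerase epsilon, had 514 and 303 counts and stood lowest, at -0.58 (-0.79 to -0.37). Its partner Pole2 had 100 and 65 counts and an interval that reached just past 0, at -0.44 (-0.91 to 0.027). Both primase genes, whose products make the RNA primers, were called lower, with 698 and 457 counts for Prim1 (25.6% lower) and 494 and 340 for Prim2 (21.8% lower). The 2 genes of polymerase alpha, which extends those primers, were closer to even, with Pola1 at -0.15 (-0.33 to 0.02) and Pola2 at -0.20 (-0.33 to -0.064).

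Of the 4 genes of polymerase delta, which copies the lagging strand, 1 was called lower, against 14.8% of all measured genes. Pold2, the accessory subunit, had 1009 and 719 counts and was 19.0% lower (10.8% to 26.5%). Pold1, the catalytic subunit, had 972 and 834 counts and an interval that held 0, at -0.04 (-0.17 to 0.098). The other 2 subunit genes, Pold3 and Pold4, are not among the 49 and are given because they complete the complex. Their intervals held 0 as well, with Pold3 at -0.10 (-0.25 to 0.041) and Pold4 at -0.03 (-0.18 to 0.11). As a description of a pair chosen after its values were seen, the Pole to Pold1 count ratio was 0.529 in the vector-labelled tumour and 0.363 in the IRF8-labelled tumour, the second 0.687 of the first (0.578 to 0.817).

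The genes of the clamp and its loader had the most similar ratios of any role. The 6 ratios lay between -0.33 and -0.16, with a standard deviation of 0.07 on the log2 scale, against 0.19 over all 49 genes. Pcna had 3386 and 2447 counts and was 17.9% lower (13.5% to 22.1%). Rfc2 and Rfc5, small subunits of the loader, were called lower as well, with ratios of -0.30 and -0.33. Opposite-strand genes overlap 15.1% of the exon bases of Rfc2 (Lat2) and 10.7% of those of Rfc5 (Wsb2). Rfc1, the large subunit, and Rfc3 had intervals below 0 at ratios of -0.16 and -0.24, short of 1.2-fold, and the interval of Rfc4 held 0. Part of Pcna is shared with Pcna-ps2, a gene listed as protein-coding. Of the 50-base stretches of the longest Pcna transcript, 31.8% occur elsewhere, mainly in that gene. Pcna-ps2 had 24 and 22 counts.

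Single-strand binding and lagging-strand genes had the lowest ratio of summed counts of any role, with 5015 and 3238 counts, 26.6% lower (23.3% to 29.8%). Rpa1, the large subunit of the complex that coats single-stranded DNA (chromosome 11, 75298166 to 75348324, minus strand), made up most of it. It had 3116 and 1885 counts and a log2 ratio of -0.54 (-0.62 to -0.46). Rpa2, its middle subunit, had 445 and 324 counts and was 17.3% lower (4.34% to 28.5%). The Rpa1 to Rpa2 count ratio was 7.0 in the vector-labelled tumour and 5.82 in the IRF8-labelled tumour, the second 0.831 of the first (0.710 to 0.973). Lig1, the ligase that seals Okazaki fragments, had 1369 and 976 counts, with a ratio of -0.30 (-0.42 to -0.18). Fen1, the nuclease that trims their flaps, had only 85 and 53 counts, with a ratio of -0.50 (-1.02 to 0.014). Of its exon bases, 84.2% overlap other genes, mainly the opposite-strand Gm10143, so the listed level of 1.76 and 1.25 FPKM may not be its full level.

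All 4 nucleotide supply genes had intervals below 0, and 2 were called lower, against 25.8% and 14.8% of all measured genes. Rrm2, the small subunit of ribonucleotide reductase, which makes deoxynucleotides and whose subunit is produced for S phase (chromosome 12, 24708241 to 24714146, plus strand), had 1129 and 648 counts. Its ratio of -0.62 (-0.76 to -0.48) was the second lowest of the 49 genes, and its rank by FPKM went from 9 in the vector-labelled to 17 in the IRF8-labelled library. Rrm1, the large subunit, had 2477 and 1837 counts and was lower by less, 15.7% (10.5% to 20.7%). The Rrm2 to Rrm1 count ratio was 0.456 and 0.353, the second 0.774 of the first (0.689 to 0.869). Thymidylate synthase, Tyms, had 445 and 306 counts (21.9% lower, 9.43% to 32.7%). Thymidine kinase, Tk1, of the salvage route, had 1067 and 788 (16.1% lower, 7.92% to 23.6%).

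Among chromatin genes, Uhrf1, which reads hemimethylated DNA behind the fork and recruits the maintenance methyltransferase, had 1886 and 1127 counts. It was 32.1% lower (26.9% to 37.0%) in the IRF8-labelled library, and 18.9% of the 50-base stretches of its longest transcript also occur in transcripts of other genes. Chaf1a, the large subunit of the histone chaperone CAF-1, had 729 and 520 counts and a ratio of -0.30 (-0.47 to -0.14), while Chaf1b, its middle subunit, had 393 and 302 and an interval that held 0, at -0.20 (-0.42 to 0.024). For Chaf1a, 52.5% of exon bases overlap the opposite-strand gene Ubxn6. E2f1, the transcription factor gene of the list, had 980 and 764 counts and was 11.4% lower (2.54% to 19.5%), rank 36 of 49 from the lowest ratio.

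**Figure D4:**
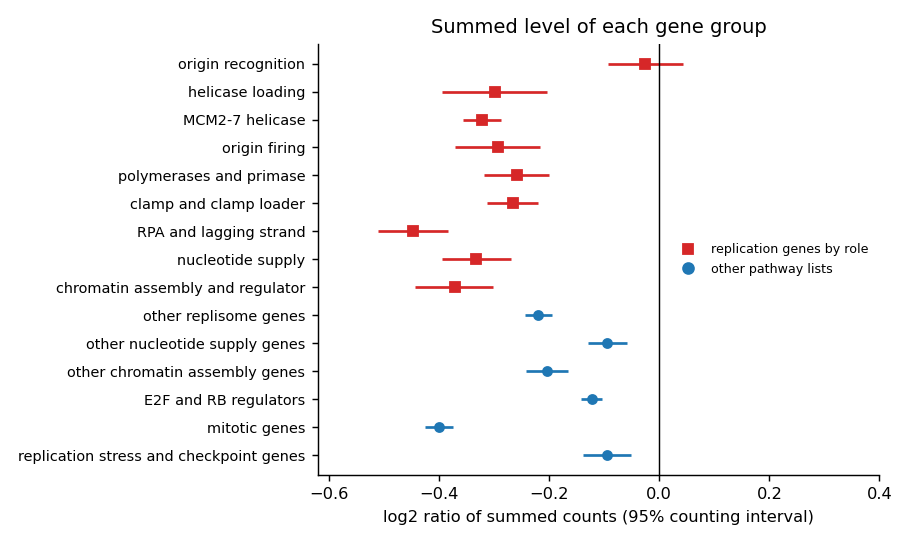
Log2 ratio of summed counts (horizontal axis, IRF8-labelled over vector-labelled, with 95% counting intervals) for the 9 roles of the replication genes (red squares) and 6 other lists of the cell cycle pathway (blue circles). Origin recognition is the one role whose interval reaches 0, and RPA with the lagging-strand genes lies lowest of the roles.

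Other replisome genes, which were not members, were placed beside these. Of 29, 12 were called lower (41.4%) and none higher, against 14.8% and 15.7% of all measured genes, with a median of -0.21. The 4 with the largest ratios were Dscc1, a part of an alternative clamp loader, at -0.70 (-1.06 to -0.35), the helicase gene Recql4 at -0.69 (-1.17 to -0.21), Atad5, whose product takes the clamp off, at -0.57 (-0.76 to -0.38), and Ticrr, an origin-firing factor, at -0.57 (-0.81 to -0.33). Among 9 further nucleotide supply genes, 4 were called lower (44.4%) and none higher. They included Shmt1, which feeds single-carbon units to thymidylate synthesis, at -0.76 (-0.89 to -0.63), Dctd, which makes dUMP, at -0.58 (-0.88 to -0.28), and Dut, which removes dUTP, at -0.32 (-0.43 to -0.21). Samhd1, which degrades deoxynucleotides and was named after its value was seen, had an interval above 0, at 0.08 (0.031 to 0.13). Among all measured genes, 23.5% had such an interval. Rrm2b and Tk2 of the same list also had ratios above 0, at 0.08 and 0.05, with intervals that held 0. Of 7 other chromatin assembly genes, 2 were called lower (28.6%), the histone chaperone genes Asf1b at -0.46 (-0.71 to -0.22) and Ssrp1 at -0.31 (-0.37 to -0.24). Supt16 and Dnmt1, the next by size of ratio, were at -0.18 and -0.17 with intervals below 0.

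The regulators of the G1 to S switch were mixed. Of 26 E2F, RB and cyclin genes, 6 were called lower (23.1%) and 1 higher, against 14.8% and 15.7% of all measured genes. The median of the 26 was -0.05. E2f2 had 194 and 101 counts, at -0.76 (-1.12 to -0.40). The cyclin genes Ccne2, Ccne1 and Ccna2, partners of the S phase kinase, were at -0.53 (-0.75 to -0.31), -0.47 (-0.72 to -0.22) and -0.40 (-0.52 to -0.28). The gene called higher was Cdkn2a, a cell cycle inhibitor locus named after its value was seen, at 0.36 (0.23 to 0.50). The inhibitor genes Cdkn1a and Cdkn1b, also named after their values were seen, were not called and were split. Cdkn1a had an interval below 0, at -0.26 (-0.33 to -0.18), and Cdkn1b had one above 0, at 0.096 (0.017 to 0.18). Genes of replication stress and checkpoints had a median of -0.10. Of 16, 5 were called lower (31.25%) and 2 higher, against 14.8% and 15.7% of all measured genes. Fancd2 at -0.49 (-0.70 to -0.27), Chek1 at -0.39 (-0.68 to -0.10) and Brca1 at -0.36 (-0.51 to -0.21), all repair or checkpoint genes of the fork, were among the lower ones. Atrip, the partner of the kinase ATR, was higher at 0.35 (0.13 to 0.57), and so was the ATR activator gene Etaa1, named after its value was seen, at 0.35 (0.19 to 0.51).

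Genes of mitosis were lower as well. Of 20, 17 were called lower (85%) and none higher, against 14.8% and 15.7% of all measured genes, with a median of -0.39. Kif20a, Ccnb1, Kif11 and Aurka had the largest ratios, at -0.67, -0.64, -0.57 and -0.53. Whether the mitotic and replication lists differ could not be tested with 1 library per group.

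**Figure D5:**
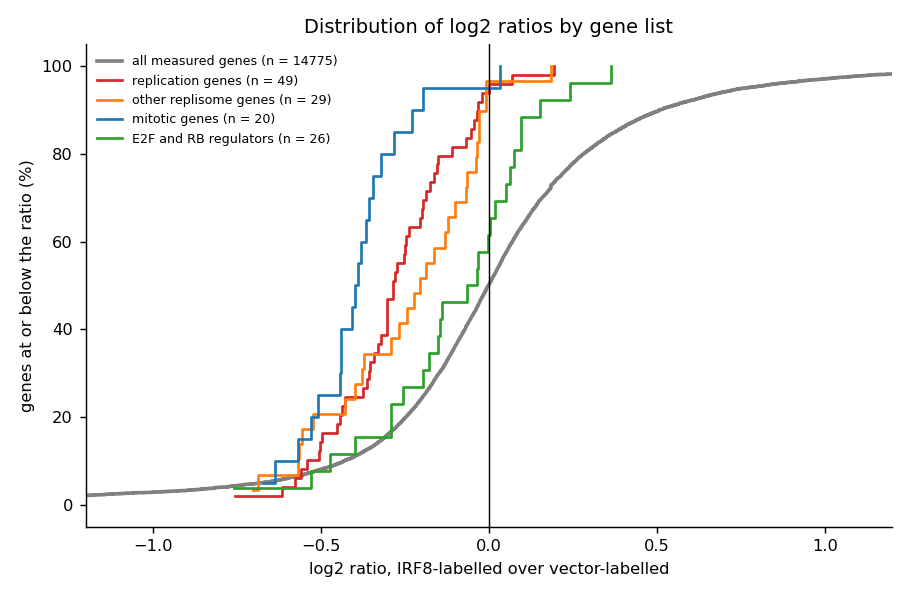
Cumulative share of genes (vertical axis, percent) at or below a log2 ratio (horizontal axis, IRF8-labelled over vector-labelled) for the 49 replication genes, 3 other lists and all 14775 measured genes. The replication genes cross the midpoint at -0.28 and the mitotic genes at -0.39, left of all measured genes at -0.0012.

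The libraries also differed in markers of cell types, and in RNA from a whole tumour fewer dividing cells and less replication RNA per cell cannot be told apart. Of 8 Hepa1-6 and hepatocyte markers, 6 were called lower, and their sum was 9125 CPM in the vector-labelled tumour and 4651 CPM in the IRF8-labelled tumour. Their median log2 ratio was -0.88, and 3 of the 8 were called 2-fold lower. Within that list the lowest was Gpc3, at -3.56 (-3.76 to -3.36), followed by Ttr at -1.56 and Afp at -1.47, and Alb had 3746 and 1873 CPM. The epithelial keratin genes Krt8 and Krt18 stood at -0.76 (-0.80 to -0.72) and -0.65 (-0.68 to -0.62), while Hnf4a and Apob stood at 0.06 (-0.02 to 0.13) and 0.10 (0.053 to 0.15). The tumour markers thus gave no single estimate of cancer cell content against which the replication genes could be set. T cell markers had sums of 96.5 and 83.1 CPM with 2 of 7 called lower, and macrophage markers 1701 and 1610 CPM with 2 of 7 called lower. Skeletal muscle markers had sums of 5.62 and 241.2 CPM with 6 of 6 called higher, and fibroblast markers 3870 and 4257 CPM with 2 of 6 called higher and 1 lower. Over all measured genes, 14.8% were called lower and 15.7% higher, and 2.87% were called 2-fold lower. No marker of these 5 lists was at 0 in either library. The part of these shifts in the ratios of the replication genes was not tested.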

How the data were processed

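Raw counts of 2 tumour libraries were deposited in 1 table, with HISAT2 2.0.5, featureCounts 1.5.0-p3 and mm10 named in the submitters' processing notes. Gene lengths were listed by the authors in the same table. The sources used here do not say how reads shared by several genes or places were counted. TMM factors came from edgeR 4.0.16 (R 4.3.3), and ratios and intervals from scipy 1.17.1, with no prior count. Measured genes had 1 CPM or more on average. A count of 0 was taken as 3 counts. PCR copies were not marked, so intervals may be too narrow. Gene coordinates are those of the deposited table, and those of the printed promoter stretches follow RefSeq starts. Exon overlaps and shared 50-base stretches came from GENCODE M21, and 48 of 49 members have the same start and end there. The steps were tested on simulated counts.

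Members, lists, thresholds and motifs were chosen with earlier results of these data known. All members were named, with up to 4 genes of the largest ratio from each of 6 pathway lists, and marker sums. The result of 1 gene named by this rule is not reported here. There were 11 marker lists. The alternatives were DESeq2 1.42.0 size factors, total counts, TMM without marker genes, other filters, a prior count of 2, thinning of the vector-labelled library and protein-coding genes only.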

Additional observations from a re-analysis of the deposited data

How the results depend on the processing

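The median log2 ratio of the replication genes was -0.28. It was -0.31 with DESeq2 size factors and -0.24 with total counts in place of TMM, and -0.28 under each of the other planned settings. The number of members at least 1.2-fold lower, 25 by TMM, was 29 with DESeq2 size factors (16.5% of all measured genes) and 21 with total counts (12.4%). It was 25 under each of the other 6 planned settings. No member was called higher, or 2-fold lower, under any of the 8 planned settings. A further setting, chosen after the data were seen, kept the 35 members with under 5% of exon bases shared with another gene. Of those, 19 were called lower (14.8% of all measured genes), 25 had an interval below 0 (25.8%), and the median was -0.28. Of 588 recomputed ratios of 74 named genes, 588 stayed within the gene's own counting interval. This count says little, because the filters and the restriction to protein-coding genes cannot change a gene's ratio. A change of scaling moves the ratios of all genes by the same amount. No paired analysis was possible because each group has 1 library, and so no library could be left out either. The column names of both libraries carry a 2, followed by L or R, and the labels do not say whether this marks 1 mouse. Depth limits the members with the fewest counts, Orc1, Fen1 and Pole2, whose intervals are the widest.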

Other observations

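Other promoter letters were searched on both strands in the same windows of 41 replication genes. The comparison set of all genes was again not matched in expression or base content. The CCAAT box (CCAAT) was found for 24 genes (58.5%, against 41.1% of all genes with a window) and the GC box (GGGCGG) for 32 (78.0%, against 38.2%). The cell cycle homology region (TTTGAA or TTCGAA), known from promoters of mitotic genes, was found for 9, against 21.7% of all genes. The median log2 ratio was -0.28 for members with a CCAAT box and -0.30 for those without.

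The remaining 6 marker lists had these summed levels in the vector-labelled and IRF8-labelled tumour. B cell markers summed to 26.0 and 117.4 CPM, adipocyte markers to 31.0 and 87.1 CPM, and mast cell markers to 43.9 and 19.5 CPM. Single genes made up most of the first 2 sums, Igkc with 23.9 and 111.9 CPM among B cell markers and Fabp4 with 29.3 and 61.0 CPM among adipocyte markers. In the mast cell list Kit stood at 9.22 and 10.9 CPM with a ratio of 0.25 (-0.054 to 0.55), while the ratios of Cpa3, Cma1, Tpsb2 and Mcpt4 ran from -2.19 to -1.92. Neutrophil markers summed to 29.5 and 31.1 CPM, endothelial markers to 120.1 and 116.7 CPM, and erythroid markers to 15.2 and 12.8 CPM. Lep, an adipocyte marker, was at 0 counts in the vector-labelled tumour, and no other marker of these lists was at 0.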
